A study of Mus musculus with 45 samples.

Results

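Intracisternal A particle (IAP) families are the mouse endogenous retroviruses of the ERVK class whose entries in the RepeatMasker annotation begin with IAP. Members were taken by that name alone, which gave 25 of the 1146 repeat families in each of 4 repeat count tables. Of these, 10 are internal parts, which carry the retroviral gag and pol reading frames, and 15 are long terminal repeats (LTRs), which flank the internal part and hold its promoter. Each family value sums the reads of all its genomic copies, so that no value belongs to 1 locus and no coordinate can be given.

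IAPs are among the youngest and most mobile retroviruses of the mouse genome, and new insertions still arise in inbred strains. In embryonic stem cells they are held silent by KRAB zinc finger proteins that recruit TRIM28 and SETDB1, the enzyme that places H3K9me3, and by DNA methylation. EHMT2 (G9a) deposits H3K9me2, a neighbouring repressive mark, and its best known retroviral target in these cells is MERVL, the retrovirus of the 2-cell embryo, rather than IAP.

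The series measured RNA in 45 libraries of mouse embryonic stem cells (mESCs), with 3 libraries in each of 15 groups. In EHMT2-dTAG cells of BL6/129 background, in which both controls and treated cells carry a degron on EHMT2, clones E2-17, E2-20 and E2-K71 received DMSO or dTAG for 24 h or 7 d. In the washout experiment the groups were DMSO for 15 d, dTAG for 15 d, and Recovery, with 7 d of dTAG followed by 8 d without it. In the sorting experiment, an EHMT2-dTAG-mcherry-mervl-gfp line of the same background received DMSO or dTAG for 72 h and was sorted into reporter-negative mESCs and reporter-positive 2-cell-like cells (2CLCs), which were gated on MERVL activity. In the Dppa4 experiment, WTJ1 wild-type (WT) cells and DPPA4KO cells (Dppa4 KO) were treated for 48 h with DMSO or with UNC0638, which blocks the catalytic activity of EHMT2 and its partner EHMT1. Cells were grown on mouse fibroblast feeders.

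The time course, washout and sorting tables hold 1 authors' mean of normalized counts per group, so their values carry no replicate error, their depth is unknown and no test was possible. For them, ratios are log2 ratios of the mean plus 1, over families with a mean of at least 10 across the groups of that experiment. A family is counted when the ratio reaches 2-fold. The Dppa4 table holds each of its 12 libraries, with 8399885 to 12710949 gene reads and 313737 to 807204 repeat reads, and was tested with limma. Dppa4, the targeted gene (GRCm38, chromosome 16, 48283733 to 48294237), was at 0 in all 6 Dppa4 KO libraries and between 700.4 and 920.5 normalized counts in the WT libraries. Summed pluripotency markers were at 35283 normalized counts or more in every group or library. In sorted 2CLCs their sum was below that in mESCs, with 35283 against 52743 in DMSO and 36815 against 45837 with dTAG. Of the 10 markers, 4 were past 2-fold lower and 1 higher there in each treatment. All 13 of 13 markers of 2-cell-like cells were past 2-fold higher in the sorted 2CLCs than in mESCs of either treatment. Of all genes, 24.2% in DMSO and 20.8% with dTAG were past 2-fold in either direction. Xist stood at a mean of 149.6 in the DMSO 24 h group and at 2.50 or less in the other 3 groups of the time course, and a group mean cannot show how many of the 3 libraries carried it.

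IAP RNA was dominated by 1 family. IAPEz-int, the internal part that the annotation gives to most full-length IAPs, had a mean of 14670 normalized counts in the DMSO 24 h group, 11807 in DMSO 15 d and 10604 in DMSO mESCs, which was 83.5%, 85.4% and 82.9% of the summed IAP counts. Its usual partner, IAPLTR1_Mm, was the LTR with the highest mean in these groups, at 638.1, 520.5 and 396.0. All IAP families together made up 2.49%, 2.31% and 1.90% of the repeat counts in the 3 groups. At the other end, 6 families (IAPEY3C_LTR, IAPEY5_I-int, IAPEY5_LTR, IAPLTR3, IAPLTR4 and IAPLTR4_I) averaged under 10 over the groups of the time course and of the washout, which left 19 of 25 families to compare there.

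The first question was how IAP families stood after acute and longer loss of EHMT2 protein. At 24 h of dTAG the abundant families differed little from DMSO. IAPEz-int had a mean of 14667 against 14670, IAPLTR1_Mm 659.3 against 638.1, and the median log2 ratio over the 19 families was -0.00, beside -0.25 over all 724 repeat families. IAPLTR3-int was the 1 family past 2-fold higher, with 46.2 against 22.2 (log2 ratio 1.02), while 0.829% of all repeat families passed that mark in the same direction. IAPA_MM-int lay just short of 2-fold on the lower side, with 30.0 against 60.6 (-0.99). These are low counts at the edge of the threshold, and with a pseudocount of 5 no IAP family passed it.

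At 7 d the 1 family past 2-fold was an internal part. IAPEy-int had a mean of 138.2 with dTAG against 31.2 with DMSO, a log2 ratio of 2.11, after 54.6 against 31.4 (0.78) at 24 h. Among all repeat families, 3.04% were past 2-fold higher, against 1 of the 19 IAP families. IAPLTR2a came next with 58.1 against 31.6 (0.86), having shown no difference at 24 h (28.3 against 28.5). IAPLTR4, below the mean filter, had 11.0 against 2.57. IAPEz-int was lower, with 12770 against 14227 (-0.16), and the summed IAP count was 16020 against 17325. In DMSO alone, 7 d against 24 h, no IAP family passed 2-fold in either direction (0.552% of all families did), and IAPEy-int stood at 31.2 and 31.4. In bulk cultures such as these, a change in the share of cells of a type and a change in RNA per cell cannot be told apart. The summed count of the 13 markers of 2-cell-like cells was 281.1 and 432.8 in DMSO and 3297 and 10271 with dTAG at 24 h and 7 d, and its part in the IAP values was not tested.

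The washout experiment carried the treatment to 15 d and set beside it cells from which dTAG was withdrawn. At 15 d, 3 of the 19 families were past 2-fold higher with dTAG than with DMSO, beside 9.84% of all families. IAPLTR2a, an LTR, had a mean of 123.6 against 16.9 (log2 ratio 2.80). IAPEy-int had 73.9 against 9.80 (2.79). IAP1-MM_LTR, the LTR of the IAP1 type, had 81.7 against 35.3 (1.19), and its internal part IAP1-MM_I-int 363.7 against 219.8 (0.72). IAPLTR4, which did not pass the mean filter, had 13.9 against 0.565.

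The most abundant members went the other way. IAPEz-int had 8992 against 11807 (-0.39) and IAPLTR1_Mm 401.4 against 520.5 (-0.37). The summed IAP count was therefore 11493 with dTAG and 13832 with DMSO, although the sum without IAPEz-int was 2501 against 2026, and the IAP share of repeat counts was 1.55% against 2.31%. Over the 19 families the median log2 ratio was 0.48, beside 0.27 over all 640 families and over the 197 other ERVK families. When groups were scaled to equal repeat totals, the median of all families was -0.03, that of the IAP families was 0.17, and 2 rather than 3 IAP families remained past 2-fold. MERVL-int and its LTR MT2_Mm took up 22.1% of the repeat counts with dTAG and 1.06% with DMSO.

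**Figure D1:**
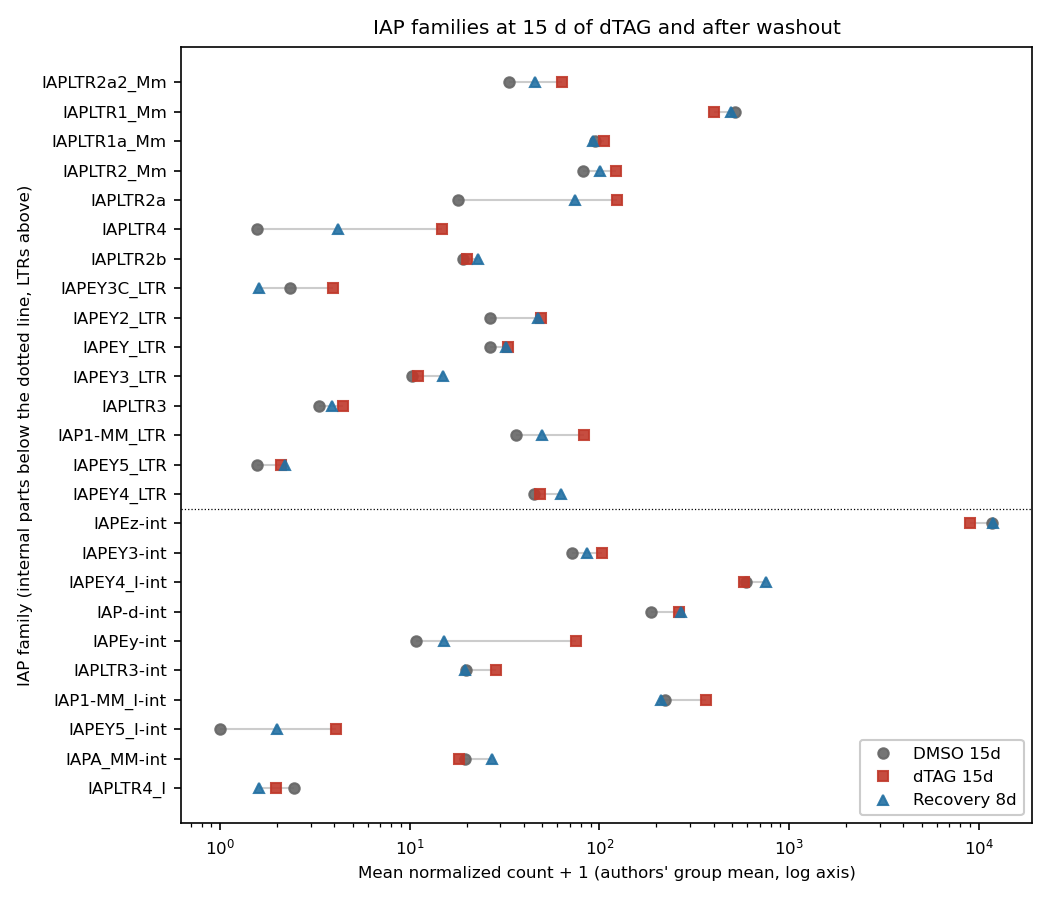
Mean normalized count plus 1 (log axis) of each of the 25 IAP families in the DMSO 15d, dTAG 15d and Recovery 8d groups, each point being the authors' mean of 3 libraries with no error bar. IAPLTR2a and IAPEy-int lie far from their DMSO means with dTAG (123.6 and 73.9), and after washout IAPEy-int lies at 14.2 and IAPLTR2a at 73.1.

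Recovery cells had 7 d of dTAG before its withdrawal, so the dTAG 15 d group is a longer exposure and not their starting point. IAPEy-int had a mean of 14.2 in Recovery, against 73.9 with dTAG 15 d and 9.80 with DMSO, and its excess over DMSO in Recovery was 6.92% of that at 15 d. IAPLTR2a had 73.1 in Recovery against 123.6 and 16.9, an excess of 52.7% of that at 15 d. At 7 d of dTAG in the time course, a separate table with its own DMSO groups, the log2 ratios were 2.11 for IAPEy-int and 0.86 for IAPLTR2a. In Recovery against DMSO 15 d that of IAPEy-int was 0.50, below its 7 d value, and that of IAPLTR2a was 2.05, above its 7 d value, a difference between tables that was not tested. IAPLTR2a was the 1 IAP family past 2-fold higher in Recovery than in DMSO 15 d, beside 0.938% of all families, and IAPEy-int the 1 family past 2-fold lower in Recovery than in dTAG (-2.30), beside 4.38%. IAP1-MM_LTR had 49.1 in Recovery, and at 7 d of dTAG in the time course it had 47.5 against 49.7 with DMSO. IAPLTR4 had 3.20 in Recovery. IAPEz-int had 11936 and IAPLTR1_Mm 491.1 in Recovery, near their DMSO means.

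Of the 63 repeat families past 2-fold higher at 15 d of dTAG, 4 were also past 2-fold higher in Recovery, and IAPLTR2a had the highest ratio among them. The excess in Recovery was at the median 19.1% of that at 15 d over those 63 families, and 3.81% for MERVL-int, which had 147295 under dTAG. How many of the 63 were higher in the washed-out cells when dTAG was withdrawn was not measured in that experiment. All comparisons with DMSO 15 d share the same 3 control libraries. Among the other families of the IAPLTR2 group, IAPLTR2a2_Mm went from 32.4 in DMSO to 62.6 with dTAG and 44.7 in Recovery, IAPLTR2_Mm from 80.9 to 121.1 and 99.6, and IAPLTR2b from 18.1 to 19.0 and 22.0. IAPLTR2a thus stood apart from its nearest namesakes in size, though no error can be put on the difference.

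Several gene groups differed along the same 3 washout groups. The summed markers of 2-cell-like cells were 796.2 in DMSO, 19700 with dTAG and 1233 in Recovery, with 13 of 13 past 2-fold higher with dTAG and 0 of 13 in Recovery. The fibroblast feeder markers summed to 9611, 11955 and 5003, with 6 of the 9 that passed the filter past 2-fold lower in Recovery than in DMSO. The 9 Y chromosome genes summed to 9.23, 157.8 and 106.8. Ddx3y had means of 2.26, 70.5 and 53.9 and Uty 5.20, 68.4 and 41.7, while Zfy1, Zfy2, Usp9y and Sry were listed at 0 throughout. The part of any of these in the IAPLTR2a values was not tested. Of the 29 listed factors of retroviral or chromatin silencing, none was past 2-fold in either direction at 15 d (4.78% of genes were). The extremes there were Dnmt3l (1195 against 1782), a cofactor of DNA methyltransferases, and Zfp809 (474.4 against 347.4), a zinc finger repressor of retroviruses. In Recovery against DMSO 15 d, 1 of 29 passed (2.69% of genes), Atrx, a chromatin remodeller that deposits H3.3, with 1664 against 748.1.

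**Figure D2:**
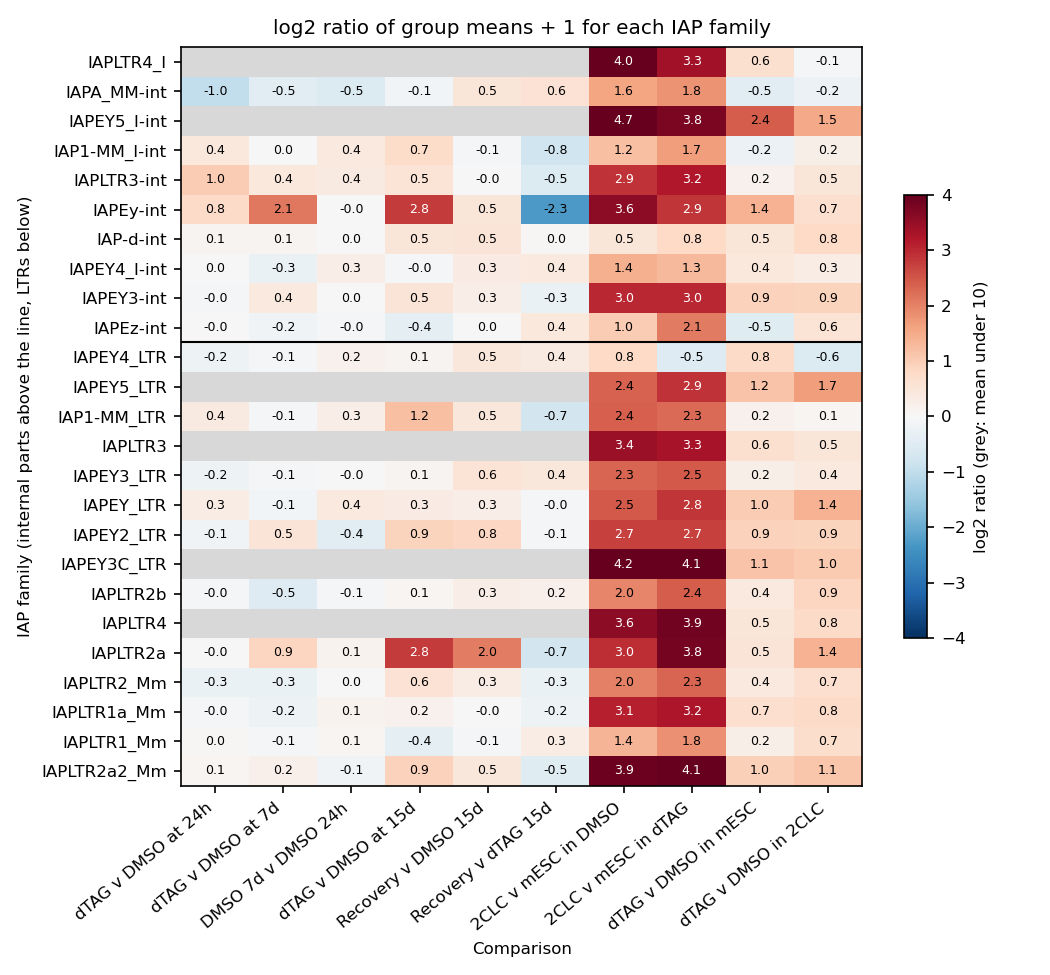
log2 ratio of group means plus 1 for each IAP family (rows) in 10 comparisons (columns), with grey where the mean over the experiment was under 10. The 6 columns of bulk cultures hold few values past 1 or -1, with IAPEy-int and IAPLTR2a as the strongest, and both columns of 2CLC against mESC are above 1 in 23 of 25 families.

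The sorting experiment asked how IAP families differ between 2CLCs and the remaining mESCs. In DMSO, 23 of 25 families were past 2-fold higher in 2CLCs, and in dTAG likewise 23 of 25. Repeat RNA as a whole was also higher there, with 67.8% of all 911 families past 2-fold higher in DMSO and 66.5% in dTAG, and repeats made up 25.6% of all counts in DMSO 2CLCs against 7.14% in DMSO mESCs. The median log2 ratio over IAP families was 2.47 in DMSO and 2.84 in dTAG, beside 1.38 and 1.44 over all families and 1.52 and 1.58 over the 243 other ERVK families. In 5 families at least 1 mESC mean was under 10, namely IAPEY5_I-int, IAPEY5_LTR, IAPLTR3, IAPLTR4_I and IAPA_MM-int. All of these but IAPA_MM-int had both mESC means under 10 and passed the filter only through their 2CLC level. Their high ratios are thus in part built into the filter. Without the 5 families, 18 of 20 families were past 2-fold in each treatment, with medians of 2.42 and 2.59.

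The greatest ratios were those of families at a low or moderate level in mESCs. IAPLTR2a2_Mm had a mean of 1527 in DMSO 2CLCs against 98.8 in DMSO mESCs (log2 ratio 3.94), and with dTAG 3274 against 193.7 (4.07), which made it the LTR with the highest mean in both 2CLC groups. IAPEY3C_LTR had 310.7 against 16.3 in DMSO (4.17) and 644.3 against 36.8 with dTAG. IAPLTR4 had 436.1 against 35.7 (3.57) and then 740.4 against 50.3. IAPEY5_I-int, nearly absent from DMSO mESCs and past the filter only through its 2CLC level, had 38.4 against 0.542 (4.67) and 110.8 against 7.20.

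Among LTRs of middle level, IAPLTR1a_Mm had 853.0 against 97.3 in DMSO (3.12) and 1462 against 155.6 with dTAG (3.22). IAPLTR2a had 533.3 against 68.0 (2.95) and 1399 against 96.8 (3.84), and IAPLTR2_Mm 911.8 against 222.5 (2.03) and 1461 against 288.8 (2.33). The remaining LTRs past 2-fold in DMSO were IAPEY2_LTR (2.74), IAPEY_LTR (2.47), IAP1-MM_LTR (2.38), IAPEY5_LTR (2.36) and IAPLTR2b (1.96), and their log2 ratios with dTAG lay between 2.27 and 2.88. The remaining internal parts were IAPLTR4_I (4.05 in DMSO and 3.35 with dTAG), IAPEy-int (3.57 and 2.86), IAPA_MM-int (1.59 and 1.81) and IAP1-MM_I-int (1.22 and 1.68).

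Internal parts and the LTRs named after them were mostly higher together. IAPEY3-int had 894.7 against 108.6 (3.03) and IAPEY3_LTR 185.9 against 36.5 (2.32). IAPLTR3-int had 447.2 against 59.5 (2.89) and IAPLTR3, past the filter only through its 2CLC level, 73.5 against 5.85 (3.44). For IAPEY4 they did not, since with dTAG the internal part IAPEY4_I-int had 823.3 in 2CLCs against 332.8 in mESCs (1.30) and IAPEY4_LTR 20.3 against 29.3 (-0.51). IAPEY4_LTR and IAP-d-int were the only 2 families short of 2-fold in both treatments, with log2 ratios in DMSO of 0.81 and 0.49.

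IAPEz-int was at the low end of the range in DMSO. Its mean was 21536 in 2CLCs against 10604 in mESCs, a log2 ratio of 1.02 that lies just inside the threshold, and with dTAG 31751 against 7526 (2.08). IAPLTR1_Mm followed it with 1012 against 396.0 (1.35) and 1652 against 468.0 (1.82). As a result IAPEz-int made up 67.4% of the IAP count in DMSO 2CLCs and 63.5% in dTAG 2CLCs, against 82.9% and 71.2% in the mESCs. The summed IAP count was 31930 against 12796 in DMSO and 50025 against 10566 with dTAG. Because MERVL-int and MT2_Mm, on whose activity the cells were gated, held 54.5% of repeat counts in DMSO 2CLCs and 64.8% in dTAG 2CLCs, the IAP share of repeats was lower there (0.953% against 1.90%, and 0.873% against 1.31%), and under scaling to equal repeat totals 7 of the 23 families in DMSO and 10 of the 23 with dTAG changed sign, IAPEz-int and IAPLTR1_Mm among them.

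**Figure D3:**
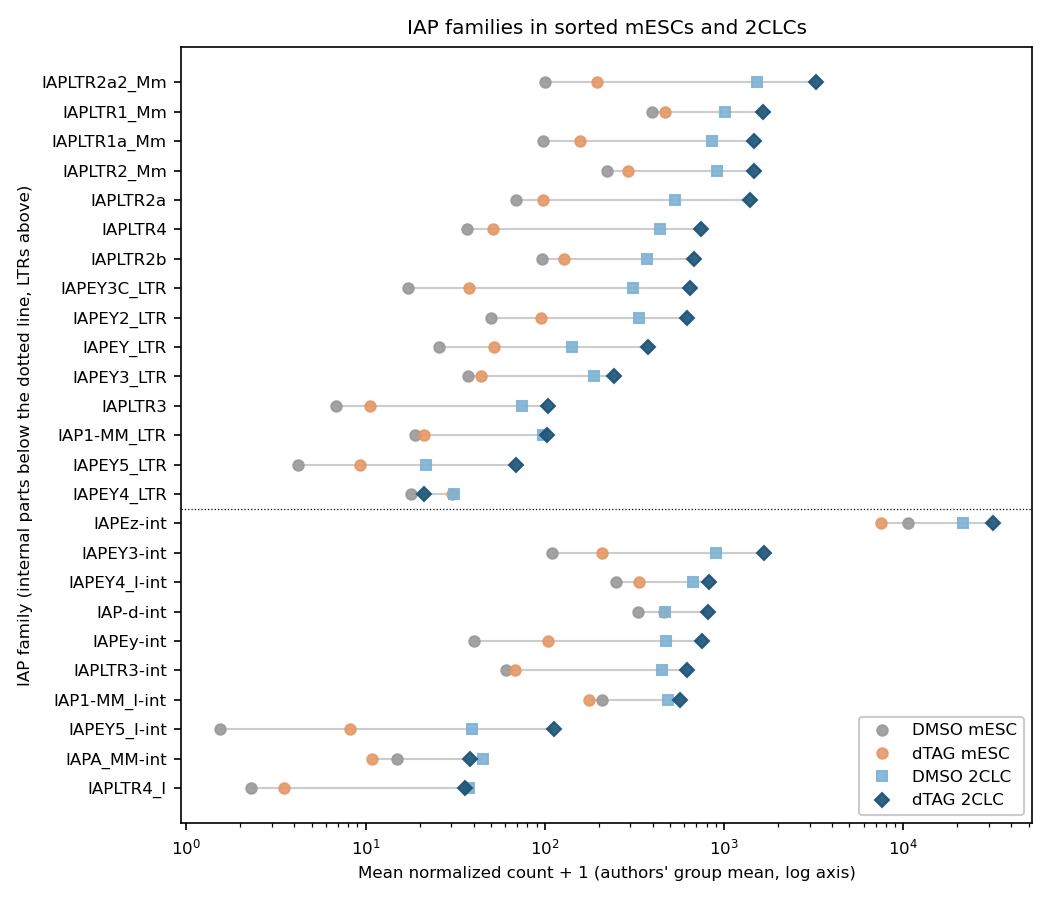
Mean normalized count plus 1 (log axis) of each IAP family in DMSO and dTAG mESCs and in DMSO and dTAG 2CLCs, each point being the authors' mean of 3 libraries with no error bar. In 23 families both 2CLC means lie at least 2-fold above the mESC means of the same treatment, and IAPEz-int lies at 10604, 7526, 21536 and 31751.

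Within each sorted population dTAG was then set against DMSO. In mESCs, 5 of 25 families were past 2-fold higher (7.35% of all families): IAPEY5_I-int (7.20 against 0.542), IAPEy-int (103.2 against 39.0, log2 ratio 1.38), IAPEY5_LTR (8.36 against 3.22), IAPEY3C_LTR (36.8 against 16.3) and IAPEY_LTR (51.3 against 24.7). Of these, 3 had a mean of at least 10 in both mESC groups. IAPEz-int was lower, with 7526 against 10604 (-0.49). In 2CLCs, 6 of 25 were past 2-fold higher (5.93% of all families). Among them IAPLTR2a had 1399 against 533.3 (1.39), IAPLTR2a2_Mm 3274 against 1527 (1.10), IAPEY_LTR 374.9 against 141.2 (1.40) and IAPEY3C_LTR 644.3 against 310.7 (1.05). The remaining ones were IAPEY5_I-int and IAPEY5_LTR (67.9 against 20.7). IAPEz-int was higher here, with 31751 against 21536 (0.56). The median over IAP families was 0.50 in mESCs and 0.71 in 2CLCs, beside 0.24 and 0.30 over all families. With groups scaled to equal repeat totals, only 1 IAP family was past 2-fold between the 2CLC groups, and it was lower with dTAG.

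The order of IAPLTR2a and IAPEy-int was thus not the same in each setting. In mESCs, IAPEy-int had the greater ratio (1.38 against 0.50 for IAPLTR2a), and in 2CLCs IAPLTR2a had it (1.39 against 0.67). The difference between populations could not be tested on group means.

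Other gene groups differed along the same sort. The 13 markers of 2-cell-like cells summed to 1220 in DMSO mESCs, 231883 in DMSO 2CLCs, 14661 in dTAG mESCs and 400861 in dTAG 2CLCs, so that the dTAG mESC fraction held more of this RNA than the DMSO mESC fraction. The Y chromosome genes summed to 0.775, 88.9, 16.5 and 104.1 in the same order, with Sry listed at 0 in each. Feeder markers summed to 6412, 4118, 7984 and 6935, with 6 of 9 past 2-fold higher with dTAG than with DMSO in mESCs (median log2 ratio 1.22; 9.56% of genes passed in either direction) and 6 of 9 in 2CLCs (1.25; 6.86% of genes). Their part in the IAP values was not tested. Of the 29 silencing factors, 2 were past 2-fold in DMSO 2CLCs against mESCs and both were higher (24.2% of genes passed in either direction), Zfp809 with 1943 against 210.4 and Atf7ip, a partner of SETDB1, with 1909 against 905.8. The lowest ratios were those of Chaf1b, a histone chaperone subunit (167.1 against 328.9), and Ehmt2 itself (64.6 against 116.5). Among 5 genes of DNA demethylation, Tet1, Tet2 and Gadd45a were past 2-fold lower, Tet1 with 3419 against 9059.

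**Figure D4:**
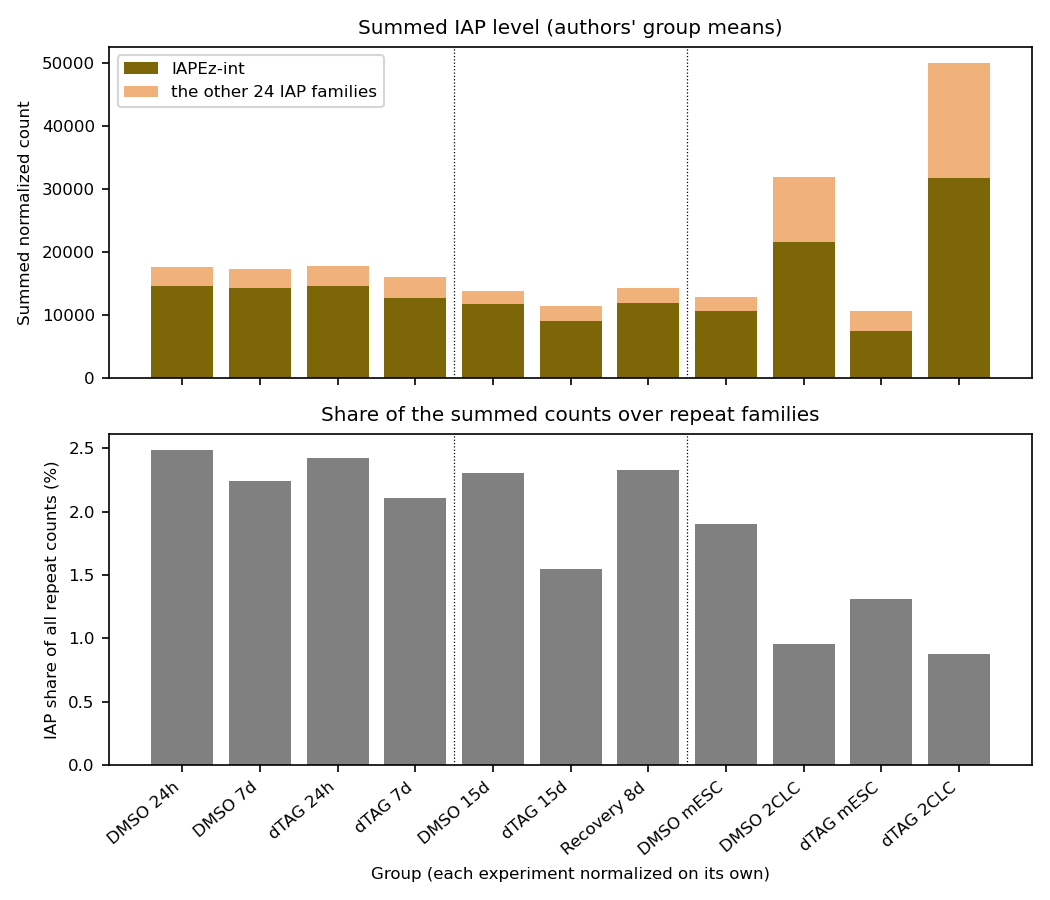
Upper bars show the summed normalized count of all IAP families in each group, split into IAPEz-int and the other families, and lower bars the IAP share of all repeat counts in percent, from authors' means with no error bar. The summed count runs from 10566 to 50025 within the sorting experiment, while the share there is highest in DMSO mESCs at 1.90%.

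The Dppa4 experiment gave the replicate error that the other tables lack. It asked whether EHMT inhibition changes IAP RNA and whether DPPA4, an activator of the 2-cell-like programme, is needed for it. Of the 25 families 21 passed the filter on low counts, and IAPEY5_I-int, IAPEY5_LTR, IAPLTR3 and IAPLTR4_I did not, with 9 to 53 reads each over all libraries. No IAP family was called in any of 5 contrasts with limma at an adjusted p under 0.05 and 2-fold. The shares of all 783 tested families called were 0% for UNC0638 against DMSO in WT, 0% for the same in Dppa4 KO, 0.639% for Dppa4 KO against WT in DMSO, 1.28% for it in UNC0638 and 0% for the difference between both UNC0638 effects. At an unadjusted p under 0.05 the IAP families numbered 3, 2, 7, 3 and 1 of 21 in the same order, beside 10.9%, 5.49%, 6.64%, 12.9% and 4.98% of all families. edgeR called none in any contrast and DESeq2 called 2, both in Dppa4 KO against WT in UNC0638.

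IAPEz-int did not separate any groups. It had 13490, 8189 and 8278 normalized counts in the WT DMSO libraries and 11741, 7861 and 9314 with UNC0638. In Dppa4 KO it had 14828, 10694 and 10327 with DMSO and 13816, 14180 and 6177 with UNC0638. The group means were 9986 ± 3035, 9639 ± 1961, 11950 ± 2500 and 11391 ± 4519 (SD, n = 3), and each pair of groups overlapped. The limma log2 fold change for UNC0638 in WT was -0.03 ± 0.31 (SE). IAPLTR2a, the family with the highest Recovery ratio after washout, had 18.6, 25.8 and 57.7 in WT with DMSO and 25.5, 47.7 and 61.5 with UNC0638, which overlap, with a log2 fold change of 0.46 ± 0.51 (SE; limma, adjusted p = 0.633, 0.418 to 0.997 over the alternatives). IAPLTR1_Mm had a log2 fold change of -0.21 ± 0.28 in the same contrast.

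**Figure D5:**
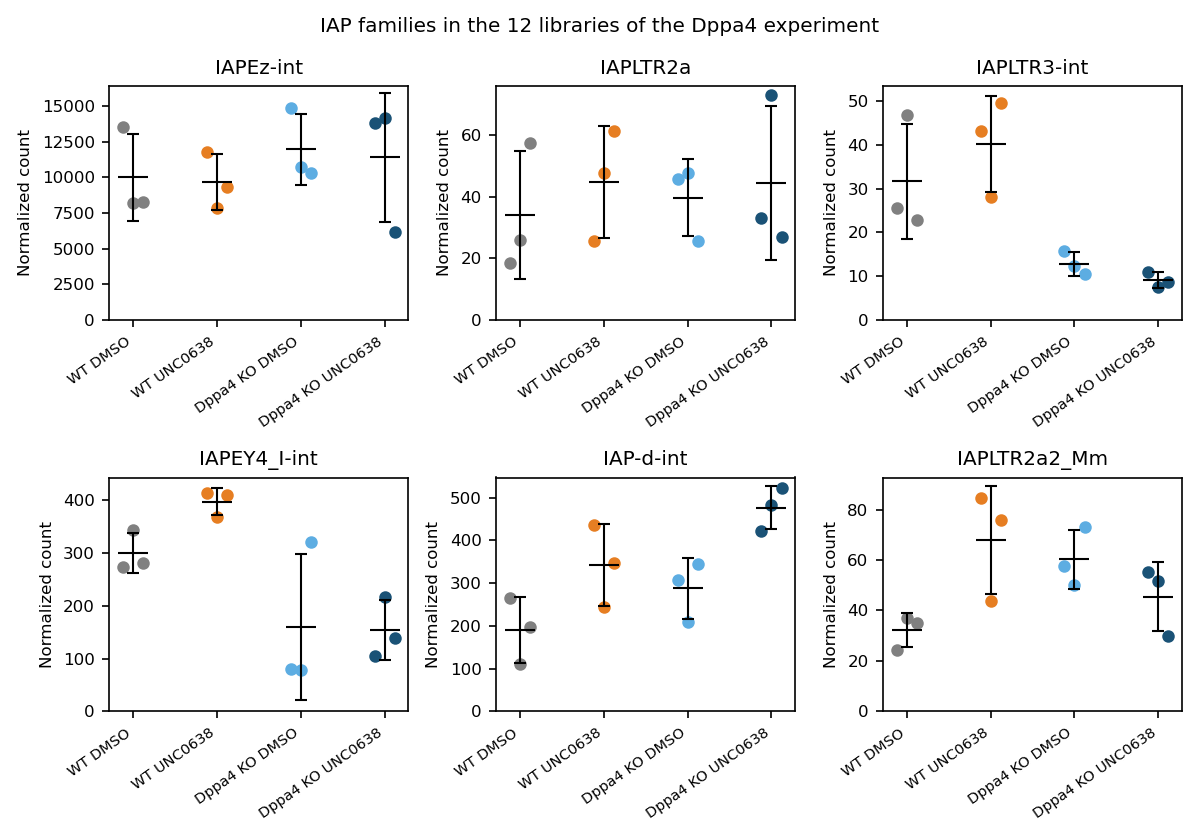
Normalized count of 6 IAP families in each of the 12 libraries of the Dppa4 experiment, with points for libraries, a horizontal bar for the group mean and whiskers for 1 SD (n = 3). IAPLTR3-int lies between 7.53 and 15.7 in Dppa4 KO and between 22.7 and 49.5 in WT, while IAPEz-int and IAPLTR2a overlap in all groups.

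The summed IAP level was tested with an exact two-sided permutation test, in which 3 libraries against 3 cannot give a p below 0.1. UNC0638 against DMSO gave a log2 difference of 0.03 in WT (p = 0.9) and -0.08 in Dppa4 KO (p = 0.8), and Dppa4 KO against WT gave 0.25 in DMSO (p = 0.4) and 0.14 in UNC0638 (p = 0.8), all with an exact test and a Benjamini-Hochberg adjusted p of 0.9 over 4 comparisons. The sum ranged from 9481 to 15336 among WT DMSO libraries alone, so that differences of this size lie within the spread between replicates.

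A few families, picked after their values were seen, came nearest to a call. In WT, UNC0638 against DMSO gave log2 fold changes of 1.03 ± 0.40 for IAPLTR2a2_Mm (adjusted p = 0.34), 1.01 ± 0.33 for IAP1-MM_I-int (0.311) and 0.89 ± 0.31 for IAP-d-int (0.311; SE, limma). IAPLTR2a2_Mm had 24.4, 36.9 and 34.96 with DMSO and 84.5, 43.9 and 75.8 with UNC0638, without overlap. IAP1-MM_I-int had 119.8, 111.9 and 224.6 with DMSO and 318.7, 170.0 and 459.9 with UNC0638, and it was higher with UNC0638 in 3 of 3 same-numbered pairs although the groups overlap. When the 6 WT libraries were fitted alone with the replicate number as a block, IAP1-MM_I-int was called (limma adjusted p = 0.0445, 0.0445 to 0.997 over the alternatives), and IAP-d-int had the same adjusted p but was short of 2-fold. That paired limma fit called 8 of all 783 families against 0 without it and 1 when the WT libraries were fitted alone and unpaired. IAPLTR2a2_Mm was one of 3 IAP families whose groups did not overlap there, with IAPEY3_LTR and IAPEY4_I-int, all higher with UNC0638, beside 27.8% of all families. The median over all families in this contrast was 0.43, and 0.04 when libraries were scaled to equal repeat totals. For the 21 IAP families it was 0.37 and -0.01.

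In Dppa4 KO, UNC0638 against DMSO gave 3 IAP families without overlap, beside 6.64% of all families, and again all were higher with UNC0638. IAP-d-int had 308.2, 208.9 and 345.9 with DMSO and 423.1, 482.7 and 523.0 with UNC0638 (log2 fold change 0.75 ± 0.31, limma adjusted p = 0.893). The others were IAP1-MM_I-int and IAP1-MM_LTR, the latter at low counts, with at most 5.09 in DMSO and at least 5.24 with UNC0638. The difference between the UNC0638 effects in Dppa4 KO and in WT had its smallest unadjusted p for IAPLTR2a2_Mm, at -1.46 ± 0.57 (limma adjusted p = 0.787).

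Dppa4 KO against WT gave the clearest separations. IAPLTR3-int had 25.6, 46.7 and 22.7 in WT with DMSO and 15.7, 12.2 and 10.4 in Dppa4 KO, and with UNC0638 43.1, 28.0 and 49.5 in WT against 11.0, 7.53 and 8.73 in Dppa4 KO. All 6 Dppa4 KO libraries lay below all 6 WT libraries. Its log2 fold change was -1.19 ± 0.52 in DMSO (limma adjusted p = 0.67) and -2.01 ± 0.52 in UNC0638 (adjusted p = 0.0578, 0.0108 to 0.415 over the alternatives), and with DESeq2 (-2.14) or with a pseudocount of 5 (-1.66) the second was called. IAPEY4_I-int had 274.6, 343.2 and 280.6 in WT with DMSO against 81.2, 78.5 and 320.4 in Dppa4 KO, where replicate 3 reached the WT level. With UNC0638 it had 413.8, 368.1 and 411.2 against 105.8, 217.2 and 138.8, which do not overlap. Its log2 fold changes were -1.22 ± 0.39 in DMSO (limma adjusted p = 0.276, 0.00109 to 0.862 over the alternatives) and -1.43 ± 0.39 in UNC0638 (adjusted p = 0.0857, 0.00395 to 0.272 over the alternatives). Without Dppa4 KO DMSO replicate 3 these were called, at -1.89 (limma adjusted p = 0.00109) and -1.43 (limma adjusted p = 0.00395). Leaving out that library, the 1 at the WT level, must enlarge the difference in DMSO, so this call adds no support. It is not part of the UNC0638 contrast, where the estimate stayed the same and only the shared estimate of the spread changed. Without Dppa4 KO UNC0638 replicate 2, the highest of its group, the value in UNC0638 was called, at -1.70 (limma adjusted p = 0.0491). Leaving out that library likewise must enlarge the difference, so this call adds no support either. With all libraries kept, DESeq2 called IAPEY4_I-int in UNC0638 (-1.37). IAPEY4_LTR, the LTR of the same family, had 25.5, 22.4 and 24.0 in WT with UNC0638 and 0, 7.53 and 14.8 in Dppa4 KO (log2 fold change -2.28 ± 0.87, limma adjusted p = 0.274).

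In all, 6 of 21 IAP families did not overlap between Dppa4 KO and WT in DMSO (3 higher and 3 lower), beside 10.9% of all families, and 4 in UNC0638 (1 higher and 3 lower), beside 16.2%. IAPEy-int, the internal part that stood out after dTAG, gave 1.15 ± 0.45 in DMSO for Dppa4 KO against WT (limma adjusted p = 0.539), with 45.4, 17.2 and 26.2 in WT and 70.4, 75.4 and 45.3 in Dppa4 KO, which overlap by a narrow margin. IAP1-MM_LTR gave -2.34 ± 0.78 in the same contrast (limma adjusted p = 0.316).

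Other RNA differed between the same lines. Markers of 2-cell-like cells summed to 179.2, 578.1 and 2681 in WT with DMSO and to 1369, 1773 and 10460 with UNC0638, and to 0 in 5 Dppa4 KO libraries and 3.49 in the sixth. The 9 Y chromosome genes summed to between 27.1 and 51.9 in the WT libraries, to 14.7 and 15.6 in replicate 1 of both Dppa4 KO groups and to 0 in the other 4. Of the 29 silencing factors, 3 were called lower in Dppa4 KO than in WT in UNC0638 (3.29% of genes were called) and none was called higher. The lowest were Gm15446, a KRAB zinc finger gene, at -3.50 ± 0.66 (limma adjusted p = 0.00762) and Dnmt3b, a de novo DNA methyltransferase, at -1.22 ± 0.28 (adjusted p = 0.0215). The part of these in the IAP values was not tested.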

How the data were processed

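RNA was sequenced from 45 libraries in 15 groups of 3, assigned from the labels. Per the study's methods and the submitters' processing notes, the authors trimmed reads with Trim Galore 0.6.7, aligned them to mm10 with STAR 2.7.10 keeping multi-mapped reads at 1 random place, counted genes (GENCODE) and repeat families with TE Counts, and divided counts by DESeq2 1.34.0 size factors. The deposited values are thus a normalized count (unit: signal, a count over a size factor); the time course, washout and sorting tables give the mean of each group, the Dppa4 table each library. Random placement moves reads between near-identical IAP copies, and IAP families share sequence, so that levels of related families are not independent. The libraries were made from polyadenylated RNA for the time course, washout and Dppa4 experiments. The kits and experiments differ, so ratios and tests were formed only within a table. A few washout values are set beside time course values, without a test. Another 10 deposited tables hold the authors' own fold changes and p-values and were not used.

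Group means were compared as log2 ratios with a pseudocount of 1, without a test. In the Dppa4 table, 100% of nonzero values gave whole reads (tolerance 0.01) after multiplication by 1 size factor per library. limma 3.58.1 with trend was fitted in R 4.3.3 to log2(value + 1) over 783 repeat families that passed edgeR's filter, with 4 group means and Benjamini-Hochberg adjustment. edgeR 4.0.16 and DESeq2 1.42.0 on the recovered reads were alternatives, as were other pseudocounts, filters and scalings, a replicate block and each library left out. The labels number the Dppa4 libraries but do not say that a number marks a shared culture. For WT DMSO and WT UNC0638, deviations of same-numbered libraries correlated by 0.103 to 0.431 over genes, each of 6 libraries best with its own number, and by -0.0053 to 0.164 over repeats, 3 of 6 best with their own. Over the other pairs of groups they lay between -0.0923 and 0.165 over genes and between -0.0934 and 0.143 over repeats. A block within the WT libraries was therefore added. A test on simulated counts for UNC0638 against DMSO in WT, with 200 of 745 families changed, recovered 99% of them with 5 false calls. Recovery at the log2 fold changes and the replicate spread measured for the IAP families was not tested. Whether the libraries labelled as replicates of WT and Dppa4 KO came from separate clones is taken from the study's methods and not from the labels; otherwise p-values measure the spread between these libraries alone. In the time course and the washout the labels name 1 clone for each of the 3 libraries of a group.

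Named families follow a rule: every IAP family past 2-fold in a comparison of group means or called in the Dppa4 experiment, the internal part and LTR with the highest mean, and IAPLTR2a. Others, such as IAP-d-int and IAPEY4_LTR, were named after their values were seen. The members and gene lists were chosen with earlier results of these data known. Intervals for group means could not be computed. No sequence is shown because the reference used here holds no IAP consensus.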

Additional observations from a re-analysis of the deposited data

How the results depend on the processing

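No paired analysis was possible for the time course, the washout and the sorted cells because only group means were used, and leaving out a replicate could not be done there. In the Dppa4 experiment, a replicate block over all 12 libraries gave 0 IAP families called in each of 5 contrasts; over all families it called 7 rather than 5 for Dppa4 KO against WT in DMSO and 12 rather than 10 in UNC0638. For UNC0638 in WT, the block within the 6 WT libraries, chosen after seeing the data, called 1 IAP family in place of 0. Counts of called IAP families, 0 as reported, were 1 with a pseudocount of 5 and 2 with DESeq2 (18 against 10 called over all families) for Dppa4 KO against WT in UNC0638, and ranged from 0 to 1 over the libraries left out for Dppa4 KO against WT in DMSO and in UNC0638. The summed IAP level changed sign for UNC0638 in WT under repeat totals (-0.37), for UNC0638 in Dppa4 KO without IAPEz-int (0.24) and for Dppa4 KO against WT in UNC0638 without IAPEz-int (-0.036). With libraries left out, these 3 ranged from -0.11 to 0.25, from -0.26 to 0.25 and from -0.032 to 0.47. Under repeat totals, the summed level for Dppa4 KO against WT in UNC0638 kept its sign and was larger, at 0.58. There the exact permutation test gave p = 0.1, the smallest it can give (adjusted p = 0.4). IAPEz-int fold changes, with libraries left out, ranged from -0.18 to 0.21 for UNC0638 in WT, from -0.35 to 0.25 for UNC0638 in Dppa4 KO and from -0.042 to 0.56 for Dppa4 KO against WT in UNC0638, and IAPLTR1_Mm for UNC0638 in WT from -0.48 to 0.065.

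Of group means, the counts past 2-fold (1 at 24 h, 1 at 7 d, 3 at 15 d, 1 for Recovery against DMSO and 1 for Recovery against dTAG) were 0 in each with a mean of at least 100, which keeps fewer families, and 2, 2, 5, 2 and 4 with no filter, which adds low ones. At 24 h the count was 0 with a pseudocount of 5 and 2 with scaling by gene totals (1 higher and 1 lower). With repeat totals the 24 h count stayed at 1, but that family was lower with dTAG (-1.04) and 0 were higher. For dTAG against DMSO in mESCs the count of 5 was 2 with a pseudocount of 5, 3 with a mean of at least 100, 3 with repeat totals and, chosen after seeing the data, 3 with a mean of at least 10 in both mESC groups. In 2CLCs the count of 6, all higher, was 1 with repeat totals, and that family was lower. For 2CLC against mESC, 23 families were past 2-fold in each treatment, all higher. Repeat totals gave 10 in DMSO (6 higher and 4 lower) and 10 with dTAG (5 higher and 5 lower). That scaling reversed, in DMSO, IAP1-MM_I-int (-1.09), IAPA_MM-int (-0.64), IAPEY4_I-int (-0.88), IAPEz-int (-1.29), IAPLTR1_Mm (-0.96), IAPLTR2_Mm (-0.28), IAPLTR2b (-0.35) and the summed level (-0.998). With dTAG it reversed IAP1-MM_I-int (-1.14), IAP1-MM_LTR (-0.50), IAPA_MM-int (-0.87), IAPEY2_LTR (-0.10), IAPEY3_LTR (-0.34), IAPEY4_I-int (-1.52), IAPEz-int (-0.76), IAPLTR1_Mm (-1.01), IAPLTR2_Mm (-0.49), IAPLTR2b (-0.41) and the summed level (-0.59). By construction this scaling divides by a total that MERVL dominates in 2CLCs. No other sign of a family past 2-fold changed under the alternatives run.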

Other observations

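Other ERVK families set beside the IAPs did not share 1 pattern in the sort. MMERVK10C-int had a mean of 11833 normalized counts in DMSO 2CLCs against 666.1 in DMSO mESCs and its LTR RLTR10C 2753 against 220.3, both higher in 2CLCs as most IAP families were. ETnERV-int, the internal part of the early transposon group, was lower there, with 6479 against 17576, while its LTR RLTRETN_Mm had 1003 against 996.9. In the washout, ETnERV-int had 27652 in DMSO, 18736 with dTAG and 29072 in Recovery, the same order as IAPEz-int, and MMERVK10C-int had 1056, 1085 and 904.3. These are authors' means without error, and the differences were not tested.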
